A study of Mus musculus with 8 samples.

Results

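The genes of MHC class II antigen presentation were followed in macrophages loaded with acetylated LDL (Ac-LDL) and in mock-treated controls. They are the 7 genes H2-Aa, H2-Ab1, H2-Eb1, H2-DMa, H2-DMb1, Cd74 and Ciita, of the 30789 gene symbols on the array, and every probe that the deposited annotation gives one of these symbols was taken, 12 of 45281 probes. The data are 8 arrays of peritoneal macrophages elicited with thioglycollate, an irritant broth that draws monocytes into the peritoneal cavity, from C57/BL6 mice aged 8 weeks. 4 samples were incubated with Ac-LDL, a chemically modified lipoprotein that scavenger receptors take up, at 120 μg/ml for 24 h, and 4 were mock treated over the same time; each group is numbered as biological replicates 1 to 4. Per the study's methods, such cells had been plated, washed free of non-adherent cells and kept in medium conditioned by L-929 cells. The arrays lie on 2 bead chips, here called slides, with replicates 1 and 2 of both groups on slide 1 and replicates 3 and 4 of both groups on slide 2, so that slide and replicate number cannot be told apart.

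MHC class II molecules are surface heterodimers of an alpha and a beta chain that show peptides from endocytosed material to CD4+ T cells. The chains are assembled on the invariant chain, encoded by Cd74, which is cut away in endosomes, and the peptide editor H2-DM then exchanges the remaining fragment for an antigenic peptide. Macrophages make these proteins at a low level at rest and raise them in response to interferon gamma, which acts through the transactivator Ciita.

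Class II genes share an upstream X box and Y box, bound by the RFX complex and by NF-Y, on which Ciita assembles. The windows show these letters for the group's genes that RefSeq promoters cover. They were taken from RefSeq sequences of build GRCm38.p6 that run from 250 bases before to 50 after a transcript start, 5′ to 3′ on the strand of the gene, with the X box and the Y box in capitals. The X box was searched as CNNGNAAC and the Y box as TGATTGG, which was required to begin 25 to 45 bases after the first base of the X box, on both strands; this spacing keeps the 2 motifs from overlapping. The pair was present in 52 of 32851 promoters, which is 0.158%, and the Y box alone in 7.82%.
H2-Aa: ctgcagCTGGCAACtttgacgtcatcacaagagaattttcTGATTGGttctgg
H2-Eb1: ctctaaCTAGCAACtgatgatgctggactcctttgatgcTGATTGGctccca
H2-DMb1: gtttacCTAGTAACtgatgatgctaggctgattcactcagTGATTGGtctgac
H2-DMb2: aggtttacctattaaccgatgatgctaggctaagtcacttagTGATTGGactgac
The window of H2-Aa is chr17:34287861-34287913 on the minus strand. Those of H2-Eb1 (chr17:34305767-34305818), H2-DMb1 (chr17:34153088-34153140) and H2-DMb2 (chr17:34145115-34145169) are on the plus strand. In H2-Aa the X box began 84 bases and the Y box 50 bases before the start, in H2-Eb1 94 and 61, and in H2-DMb1 97 and 63. H2-DMb2, the near-identical neighbour of H2-DMb1, held the Y box but no match to the X box as spelled. Its searched promoter, chr17:34144999-34145298, lies inside the gene, which begins at 34143229, so a promoter at that end of H2-DMb2 was not searched. Neither of the 2 RefSeq promoters of H2-DMa held the Y box as spelled. Both windows, chr17:34122582-34122881 and chr17:34125268-34125567, lie inside the gene, which begins at 34119693. A promoter at that end of H2-DMa was therefore not searched. The pair was also present in the promoters of 3 class II genes that were detected on 0 of 8 arrays, H2-Oa, H2-Ob and H2-Eb2. RefSeq promoters were matched for 4 of the 7 genes; H2-Ab1, Cd74 and Ciita were not matched. These matches are letters in a window, and binding was not measured.

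Of the 12 probes, 10 passed the filter, which asked for detection on 4 or more of the 8 arrays, and were tested, for 6 of the 7 genes. The values below are normalized log2 intensities, made by background correction with an offset of 16 and quantile normalization. A fold change on this scale understates the change of a dim probe. Between 36.8% and 38.5% of all probes were detected per array, with a median deposited signal of 42.5 to 46.4, and the ranges of both slides overlapped (16679 to 17439 detected probes on slide 1 and 16970 to 17287 on slide 2). The standard error over the beads of a tested class II probe was 2.28% to 7.43% of its signal, from 31 to 63 beads. All 8 genes of a macrophage marker list passed the filter, with mean log2 intensities in both groups of 15.0 for Lyz2 (lysozyme) and 13.1 for Cd68. In whole-well RNA, fewer cells with class II transcripts and less transcript per cell cannot be told apart.

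None of the 10 class II probes was called between Ac-LDL and control. In the unpaired limma comparison, in which 0.0409% of all tested probes were called at a Benjamini-Hochberg adjusted p under 0.05, the smallest adjusted p of a class II probe was 0.968. Blocking on replicate number gave a smallest adjusted p of 0.0754, where 0.444% of all tested probes were called, and blocking on slide one of 0.155, where 0.321% were called. The same 10 probes were all higher on slide 2 than on slide 1, by 0.38 to 0.98 on the log2 scale, as were 47.3% of all tested probes. 7 of them, from all 6 tested genes, were called as higher on slide 2 in a limma model with group and slide, against 23.6% of all tested probes called in either direction and 11.7% called as higher. The plot of levels by replicate number shows both patterns.

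**Figure D1:**
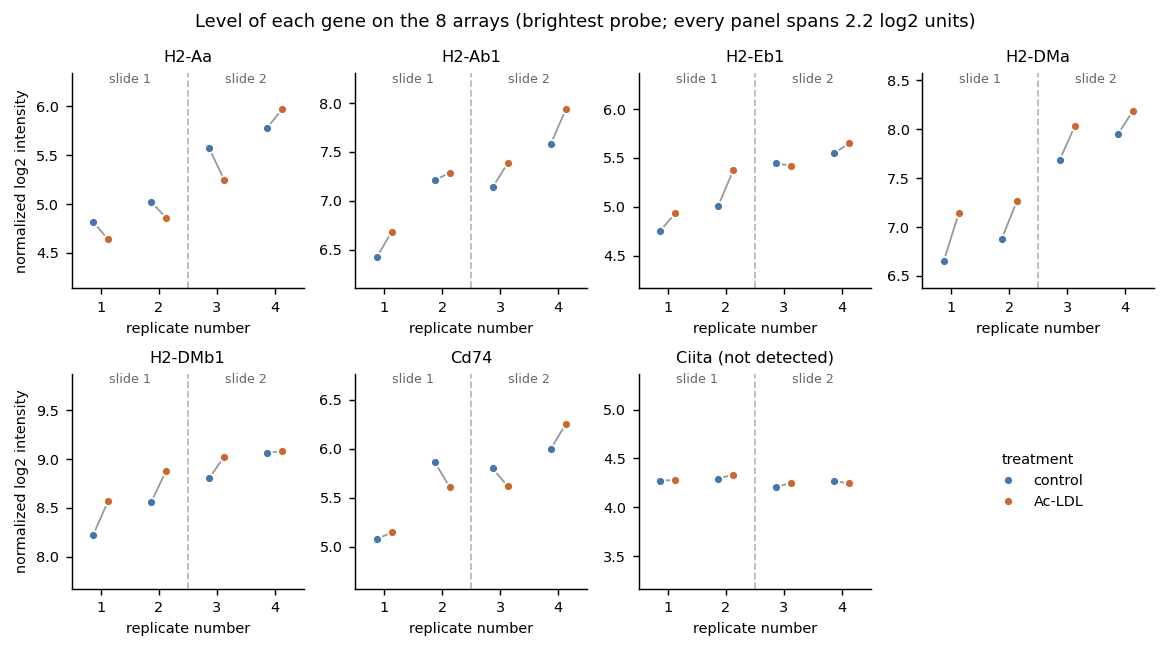
Normalized log2 intensity (vertical axes, each spanning 2.2 units) of the brightest probe of each gene by replicate number (horizontal axes), with control in blue and Ac-LDL in orange; a grey line joins the arrays of one replicate number and the dashed line separates the slides. For H2-DMa, all arrays of slide 1 lie at or below 7.26 and all arrays of slide 2 at or above 7.69, while Ciita, detected on 0 of 8 arrays, stays between 4.21 and 4.34.

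The alpha chain gene H2-Aa (chr17:34282744-34287823, GRCm38.p6) has 1 probe, detected on 7 of the 8 arrays. In control replicates 1 to 4 its log2 intensity was 4.82, 5.02, 5.57 and 5.78. In Ac-LDL replicates 1 to 4 it was 4.64, 4.86, 5.25 and 5.97. The highest and the lowest array both belonged to Ac-LDL, and the groups overlapped over nearly their whole range, whereas every array of slide 2 was above every array of slide 1. The means were 5.30 ± 0.45 (SD, n = 4) in control and 5.18 ± 0.59 (SD, n = 4) with Ac-LDL, a difference of -0.12 (standard error 0.30, limma adjusted p = 0.994). Between the slides the difference was 0.81 (standard error 0.15, limma adjusted p = 0.0046), a 1.75-fold higher intensity on slide 2 with a 95% confidence interval of 1.40 to 2.19. The size depended on the background step, at 0.50 without background correction and 0.43 with an offset of 50. Of the variation of this probe over the 8 arrays, 78.2% lay between the slides and 1.70% between the treatments.

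H2-Ab1, the gene of the A beta chain (chr17:34263227-34269418), has 3 probes. Probe 1 (ILMN_1226525), the brightest, read 6.42, 7.21, 7.14 and 7.58 in control replicates 1 to 4. With Ac-LDL it read 6.68, 7.29, 7.39 and 7.94. Each Ac-LDL array was above the control of the same number, by 0.26, 0.08, 0.25 and 0.35. In the deposited signals, which are not scaled between arrays, this held in 3 of 4 pairs. The groups overlapped, and replicate 1 was lowest in both. The Ac-LDL difference was 0.24 (limma adjusted p = 0.987 unpaired and 0.273 with the replicate block), and the slide difference was 0.61 (limma adjusted p = 0.054), on the other side of the threshold from the second probe. For this probe 45.5% of the variation lay between replicate numbers of one slide, nearly as much as the 46.4% between the slides.

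The other H2-Ab1 probes read different stretches of the transcript, beginning at base 180 and base 732 of the reference transcript in the deposited annotation. Their deposited 50-base sequences are given, 5′ to 3′, to show that separate parts of the transcript were measured; no letters are marked.
H2-Ab1 probe 2 (ILMN_2631423): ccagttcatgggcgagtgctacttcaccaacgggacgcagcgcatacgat
H2-Ab1 probe 3 (ILMN_2913716): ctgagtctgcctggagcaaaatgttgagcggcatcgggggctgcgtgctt
Probe 2 read 5.47, 6.03, 6.10 and 6.34 in the controls and 5.89, 6.00, 6.20 and 6.59 with Ac-LDL. Every slide 2 array was above every slide 1 array, and the slide difference was 0.46 (standard error 0.13, limma adjusted p = 0.0322). Probe 3 read 5.39, 6.19, 5.78 and 6.09 in the controls and 5.68, 5.78, 6.32 and 6.37 with Ac-LDL, with the slides overlapping and a slide difference of 0.38 (limma adjusted p = 0.128). The Ac-LDL difference was 0.19 for probe 2 and 0.18 for probe 3, and within slide 1 that of probe 3 was -0.06. The deposited coordinates, whose build is not named, place probe 3 at 33876128 on chromosome 17, apart from probes 1 and 2 at 34406081 and 34401719.

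H2-Eb1, the gene of the E beta chain (chr17:34305867-34316674), read 4.75, 5.01, 5.44 and 5.55 in control replicates 1 to 4. With Ac-LDL it read 4.93, 5.37, 5.42 and 5.65. The highest array of slide 1, Ac-LDL replicate 2, was just below the lowest of slide 2, Ac-LDL replicate 3, so the slides did not overlap and the treatments did. The slide difference was 0.50 (standard error 0.12, limma adjusted p = 0.0152) and the Ac-LDL difference 0.16 (standard error 0.20, limma adjusted p = 0.987). Without background correction the slide difference was 0.31, and with an offset of 50 it was 0.26.

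H2-DMa (chr17:34119693-34139101), which encodes the alpha chain of the peptide editor, showed the largest slide differences of the group. Its brighter probe (probe 2, ILMN_2866856) read 6.65, 6.88, 7.69 and 7.95 in control replicates 1 to 4. With Ac-LDL it read 7.14, 7.26, 8.04 and 8.19. In both treatments the arrays of slide 2 were above all arrays of slide 1, and the Ac-LDL array was the higher of each pair, by 0.49, 0.39, 0.35 and 0.24. The slide difference was 0.98 (standard error 0.10, limma adjusted p = 0.000548), a 1.98-fold higher intensity on slide 2 with a 95% confidence interval of 1.70 to 2.29. An exact two-sided permutation test over the 70 assignments of the arrays gave p = 0.0286 for the slides, the smallest it can give, and p = 0.4 for the treatments. The test ignores slide and replicate number, so its p for the treatments also takes in the spread between the slides.

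The other H2-DMa probe has a different sequence and gave the same picture, and is printed because it is a separate set of beads for one transcript.
H2-DMa probe 1 (ILMN_2777769): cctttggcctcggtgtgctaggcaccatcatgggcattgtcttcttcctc
It read 5.95, 6.19, 6.87 and 7.19 in the controls and 6.41, 6.57, 7.35 and 7.52 with Ac-LDL, and again the slides did not overlap and the treatments did. Its slide difference was 0.95 (standard error 0.10, limma adjusted p = 0.000691). The Ac-LDL difference was 0.41 for this probe (limma adjusted p = 0.968 unpaired and 0.0754 with the replicate block) and 0.37 for the brighter one (0.979 and 0.116). With the replicate block, the 95% confidence interval of the fold with Ac-LDL was 1.18 to 1.51 for this probe and 1.14 to 1.47 for the brighter one, before adjustment for the number of probes. In the deposited signals, before normalization, the brighter probe was higher with Ac-LDL in 3 of 4 pairs and the other in 4 of 4.

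H2-DMb1 (chr17:34153191-34160229), the beta chain of the editor, read 8.22, 8.56, 8.80 and 9.06 in control replicates 1 to 4. With Ac-LDL it read 8.57, 8.88, 9.03 and 9.08. The Ac-LDL array was above its control in each pair, by 0.35, 0.32, 0.22 and 0.02. In the deposited signals, before scaling between arrays, this held in 2 of 4 pairs. The slide difference of 0.44 (standard error 0.11, limma adjusted p = 0.0214) passed the test although Ac-LDL replicate 2 on slide 1 was above control replicate 3 on slide 2. The Ac-LDL difference was 0.23 (limma adjusted p = 0.969 unpaired and 0.306 with the replicate block). H2-DMb1 and H2-DMb2 are near-identical copies, and how far each probe reads the other transcript is uncertain.

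Cd74 (chr18:60803849-60812652), the invariant chain, has 3 probes, of which 1 was at background on all arrays. Probe 2 (ILMN_3089584) read 5.07, 5.87, 5.80 and 6.00 in the controls and 5.14, 5.61, 5.61 and 6.25 with Ac-LDL. Probe 1 (ILMN_1221817) read 5.12, 5.54, 5.79 and 6.07 in the controls and 5.04, 5.64, 5.63 and 6.25 with Ac-LDL. In both probes the arrays of replicate 1 were lowest, those of replicate 4 were highest, and replicates 2 and 3 lay close together across the slide boundary. The slide difference was 0.60 for probe 1 (limma adjusted p = 0.0306) and 0.49 for probe 2 (limma adjusted p = 0.0886), and 37.9% and 49.9% of the variation lay between replicate numbers within a slide. The Ac-LDL differences were 0.01 and -0.03, with 95% confidence intervals under the replicate block of 0.88 to 1.16-fold and 0.83 to 1.15-fold.

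Ciita (chr16:10480014-10531064), the transactivator, was detected on 0 of the 8 arrays, with deposited signals of 31.7 to 39.0. A probe that the annotation lists under the older symbol C2ta, which the choice by symbol leaves out, was also detected on 0 of 8 arrays, at 32.4 to 37.5. Neither was tested, and no difference could be detected at this signal over background.

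**Figure D2:**
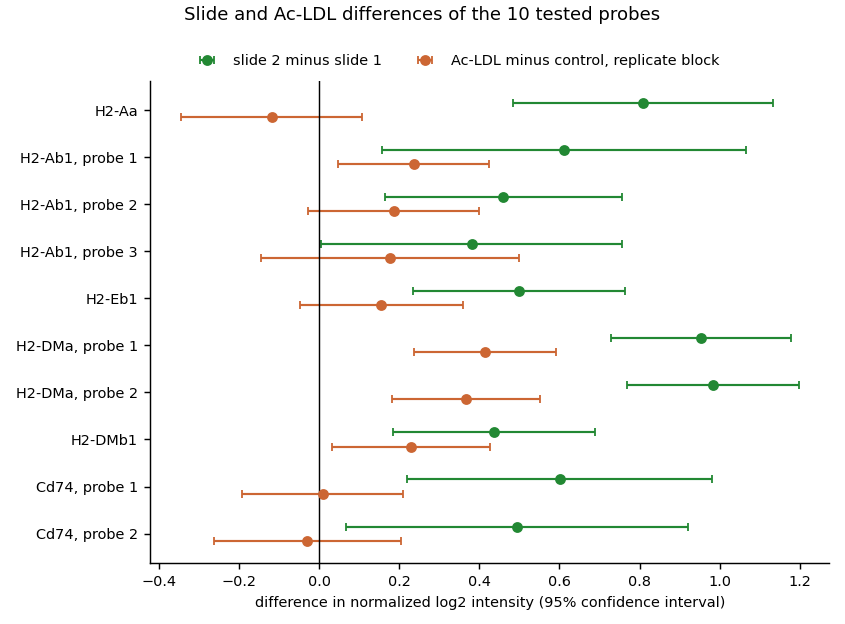
Difference in normalized log2 intensity (horizontal axis) for each of the 10 tested probes, as slide 2 minus slide 1 (green) and as Ac-LDL minus control with the replicate block (orange); bars are 95% confidence intervals from limma, not adjusted for the number of probes. All 10 slide differences lie between 0.38 and 0.98, and the Ac-LDL differences lie between -0.12 and 0.41.

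Across the 10 probes, the median difference was 0.55 between the slides and 0.18 between Ac-LDL and control. Over all tested probes the medians were -0.02 and 0.00, and the median sizes without sign were 0.17 and 0.09. In 5 probes of 4 genes (both H2-DMa probes, H2-Aa, H2-Eb1 and H2-Ab1 probe 2) the 4 arrays of slide 2 were all above those of slide 1, as in 10.7% of all tested probes. For 0 of 10 probes did the treatments separate in this way, against 3.8% of all tested probes in either direction. The Ac-LDL array was the higher in 4 of 4 pairs for 4 of the 10 probes, against 11.5% of all tested probes. In the deposited signals, a check chosen after seeing the data, this held for 2 of the 10 probes (H2-Ab1 probe 2 and H2-DMa probe 1), against 1.57% of all tested probes. There the Ac-LDL array was the higher in 0 of 4 pairs for H2-Aa and in 1 of 4 for H2-Eb1 and both Cd74 probes. The deposited signals are not scaled between arrays. Their median was lower with Ac-LDL in replicates 1, 3 and 4 (42.5, 45.7 and 45 against 45.4, 46.1 and 46.4). In replicate 2 it was higher (44.2 against 42.8). With 1 array left out in turn, the Ac-LDL difference ran from 0.01 to 0.45 for H2-Ab1 probe 1, from 0.01 to 0.29 for H2-Eb1, from 0.21 to 0.63 and from 0.15 to 0.59 for H2-DMa probes 1 and 2, and from 0.08 to 0.36 for H2-DMb1. An unadjusted p under 0.05 was reached by 0 of 10 probes in the unpaired limma comparison (5.2% of all tested probes) and by 4 of 10 with the replicate block (13.8%). The Ac-LDL difference itself was not found to differ between the slides, with 0 of 10 probes called in the limma interaction (smallest adjusted p = 0.734) and 0 of all 17122 probes, although 8.38% of all tested probes had an unadjusted p under 0.05.

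Within the control arrays alone, all 10 probes were higher on slide 2, by 0.15 to 1.06, and 4 of 10 were called, against 18.6% of all tested probes. Within the Ac-LDL arrays alone, all 10 were again higher, by 0.33 to 0.94, and 0 of 10 were called, against 0.239% of all tested probes, with H2-DMa nearest to the threshold (limma adjusted p = 0.0587). The count of 7 called probes fell to 4 without control replicate 1, control replicate 4 or Ac-LDL replicate 1, and rose to 10 without control replicate 2. Over all 17122 tested probes, the count of 4042 fell to 2499, 2576 and 2960 in those same settings. It was 2503 without control replicate 2. H2-Aa, H2-Eb1 and both H2-DMa probes were called with each of the 8 arrays left out in turn.

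Levels also differed between the replicate numbers of one slide. The mean of the 2 arrays of replicate 1 was the lowest and that of replicate 4 the highest for 10 of 10 probes, against 12.5% of all tested probes. Part of this order follows from the slide difference, since all 10 probes were higher on slide 2, as were 47.3% of all tested probes. The 12.5% is therefore not a like-for-like share. A limma F test over the 4 replicate numbers called 9 of 10 probes, against 12.1% of all tested probes. H2-Ab1 probe 3 was the exception (adjusted p = 0.14). Because that F test takes in the slide, its calls do not bear on differences within a slide, which were not tested. The share of the variation between the slides ran from 34.7% to 84.3% with a median of 58.9%, and that between replicate numbers within a slide from 3.25% to 49.9% with a median of 23.8%. Treatment took 0.01% to 16.3%, with a median of 7.18%. The medians over all tested probes were 30.6% for slide, 16.7% for replicate number within a slide and 7.93% for treatment. The stacked bars of these shares show the slide share above the treatment share in each probe.

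**Figure D3:**
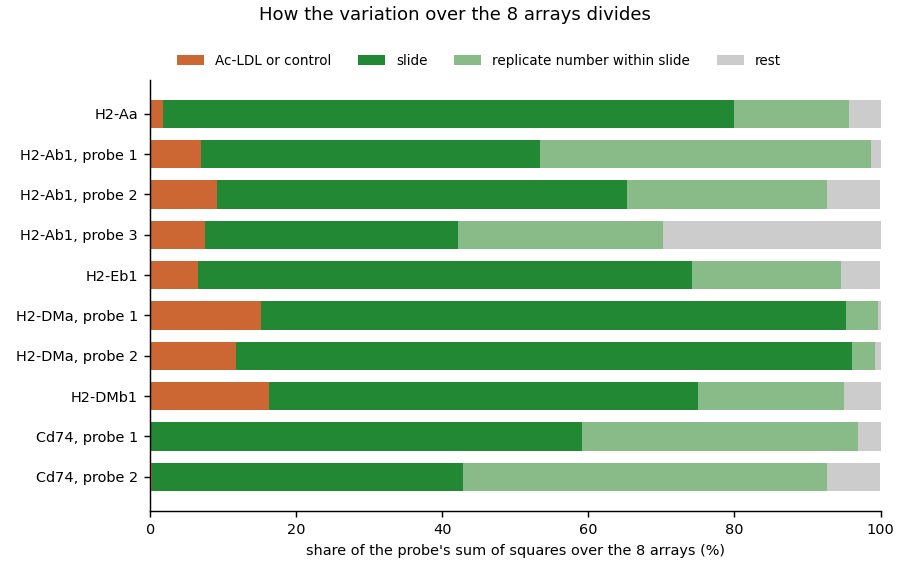
Share of the sum of squares over the 8 arrays (horizontal axis, percent) for each of the 10 tested probes, divided into treatment (orange), slide (dark green), replicate number within a slide (light green) and the rest (grey). The slide share is largest in the H2-DMa probes, 80.1% and 84.3%, and replicate number within a slide takes 45.5% in H2-Ab1 probe 1 and 49.9% in Cd74 probe 2.

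The 6 detected genes moved together over the arrays. The mean of their centred log2 intensities, taken over the brightest probe of each, was -0.62, -0.18, 0.14 and 0.38 in control replicates 1 to 4 and -0.42, -0.06, 0.18 and 0.58 in Ac-LDL replicates 1 to 4. Slide 1 arrays were all negative and slide 2 arrays all positive. Within each replicate number the Ac-LDL mean was above the control mean, while the treatments overlapped. Pearson's r of each gene with the mean of the other 5, over 8 arrays that fall in 2 slides, ran from 0.87 for H2-Aa and Cd74 to 0.96 for H2-Eb1. With each slide's mean taken off, it ran from 0.52 for H2-Aa to 0.97 for H2-Ab1.

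The 10 genes outside the group whose profile over the 8 arrays was most like this mean were Aif1, Lst1, Clec4b1, Kifc2, Dnajc12, Ccl3, 3830406C13Rik, Ccl6, Smox and St3gal3, with r from 0.97 to 0.99. An r above 0.9 was reached by 327 probes, 1.91% of all those tested, a count from which the class II probes were not removed. The points of this correlation are arrays of which each 4 share a slide. Aif1, which encodes a calcium-binding protein of macrophages, was 1.58 higher on slide 2 (limma adjusted p = 0.00255). The chemokine genes Ccl3 and Ccl6 were 1.06 and 1.18 higher (limma adjusted p = 0.00304 and 0.0146). After each slide's mean was taken off, the 10 most like included Gpr146, 0610030P10Rik, Aif1, Wtip, Lst1, Dnajb13, Rab13, Hdac8 and BC020108, with r from 0.96 to 0.99. Aif1 and Lst1 were in both sets, but both measures use the same 8 arrays, so this is no separate support. These genes were picked as the highest, and the share of tested probes with such an r was not counted for this measure. BC020108 and Gpr146 were lower on slide 2, by 0.89 and 0.37 (limma adjusted p = 0.00346 and 0.0317), against the direction of the class II genes.

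Of the 5 other class II genes, H2-DMb2 was tested and the rest, H2-Ea, H2-Eb2, H2-Oa and H2-Ob, were detected on 0 of 8 arrays. H2-Ea is annotated in RefSeq as a transcribed pseudogene, and its promoter is deleted in the H2 b haplotype that C57BL/6 mice carry. H2-O is an inhibitor of H2-DM found mainly in B cells. H2-DMb2, a beta chain of the editor, has 2 probes. One (ILMN_2979639) was detected on 0 of 8 arrays, with deposited signals of 32.8 to 48.1, and was not tested. How far the tested probe (ILMN_2589164) reads the transcript of H2-DMb1 is uncertain. That tested probe read 8.36, 8.61, 8.84 and 8.98 in the controls and 8.88, 8.99, 9.23 and 9.13 with Ac-LDL. The Ac-LDL array was the higher in each pair although the groups overlapped, and treatment took 46.5% of the variation and slide 40.6%. The Ac-LDL difference was 0.36 (limma adjusted p = 0.887 unpaired and 0.147 with the replicate block), and the slide difference was 0.33 (limma adjusted p = 0.0264).

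Genes of the endosomal pathway and of class II control were examined from lists of related genes. Of 10 tested antigen processing genes, 6 were called as higher on slide 2 and 1 as lower, with a median slide difference of 0.32, and 0 were called by treatment in limma with or without the replicate block (3 at an unadjusted p under 0.05 with the block). Ctss, the protease that cuts the invariant chain, was 0.94 higher on slide 2 (limma adjusted p = 0.00295) and differed by 0.00 with Ac-LDL. Ctsl (cathepsin L) was 0.78 higher, Ifi30, a thiol reductase of antigen breakdown, 0.59 higher, Ctsd (cathepsin D) 0.38 higher and Sppl2a, which clears the last fragment of the invariant chain, 0.35 higher on slide 2. Their adjusted p values ran from 0.00166 to 0.0189 in limma, and the other tested probe of Sppl2a was not called. Lgmn, an asparaginyl protease, was 0.28 higher (limma adjusted p = 0.0314), and Cd63, a membrane protein of late endosomes, was 0.27 lower on slide 2 (limma difference -0.27, adjusted p = 0.0426), with 0 of 2 other probes called. By treatment the largest differences were Ctsl, 0.48 with Ac-LDL (limma adjusted p = 0.0595 with the replicate block), Lgmn, 0.36, Ifi30, 0.34, and Lamp1, a lysosomal membrane protein, 0.13.

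Genes that control class II transcription did not share one direction. Of 14 tested, 3 were called as higher and 1 as lower on slide 2, the median slide difference was -0.02, and 0 were called by treatment in limma (2 at an unadjusted p under 0.05 with the block). Ifngr1, a chain of the interferon gamma receptor, was 0.71 higher, its kinase Jak1 0.44 higher and Irf8, a factor of myeloid cells, 0.35 higher on slide 2 (limma adjusted p = 0.00113, 0.00453 and 0.0264), and Irf1, an interferon-induced factor, differed by -0.25 (0.0368), with 0 of 3 other probes called. By treatment, Ifngr1 differed by 0.40, Rfxap by -0.19 and Nfya by 0.19. Among the X box and Y box factors, Rfx5 was detected on 0 and Rfxank on 3 of 8 arrays and were not tested, and the NF-Y genes Nfya, Nfyb and Nfyc differed between the slides by 0.11, -0.19 and -0.22, none of them called. Of 6 tested targets of interferon gamma, 0 were called as higher on slide 2 and 1, the GTPase gene Gbp2, as lower (difference -0.53, limma adjusted p = 0.0022), with Cxcl10 at -0.39 and Ifi47 at 0.34. The 6 differed by -0.23 to 0.00 with Ac-LDL, the largest being Ifi47, Irgm1 at -0.22, Gbp2 at -0.18 and Gbp3 at -0.12, and 0 were called in limma (2 at an unadjusted p under 0.05 with the block).

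Of 7 tested costimulation genes, 3 were called as higher and 1 as lower on slide 2, with a median of 0.34. Cd86, a ligand of CD28, was 0.49 higher, Cd83 0.42 higher and the adhesion gene Icam1 0.34 higher (limma adjusted p from 0.00258 to 0.0266), while Cd274, the inhibitory ligand PD-L1, differed by -0.49 (limma adjusted p = 0.01). Cd40, a receptor for T cell help, differed by 0.46 and was not called. With Ac-LDL, Cd83 differed by 0.30, Cd86 by 0.16, Cd274 by -0.11 and Icam1 by -0.08, and 0 of 7 were called in limma (1 at an unadjusted p under 0.05 with the block).

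MHC class I presentation genes served as a comparison, since Psmb9, Tap1, Psmb8 and Tap2 lie between H2-DMb1 and H2-Ob in the same region, from chr17:34182030 to 34216321. Of 10 tested class I genes, limma called 0 by slide (23.6% of all tested probes) and 0 by treatment, and the median slide difference was -0.04. At an unadjusted p under 0.05 there was 1 by slide and 1 by treatment with the replicate block. H2-K1, a class I heavy chain, differed most between the slides, by 0.31 (limma adjusted p = 0.0928), followed by the peptide transporter Tap1 at -0.24 and the immunoproteasome gene Psmb9 at 0.18. Tap2 and Psmb8, the others of the region, differed by -0.03 and 0.18. With Ac-LDL, H2-K1 differed by -0.35 and H2-D1 by -0.19, Psmb8 by 0.17 and Tap1 by -0.13, and none was called. The difference between the class II and the class I lists was not tested. The plot of slide differences by gene list places these groups side by side.

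**Figure D4:**
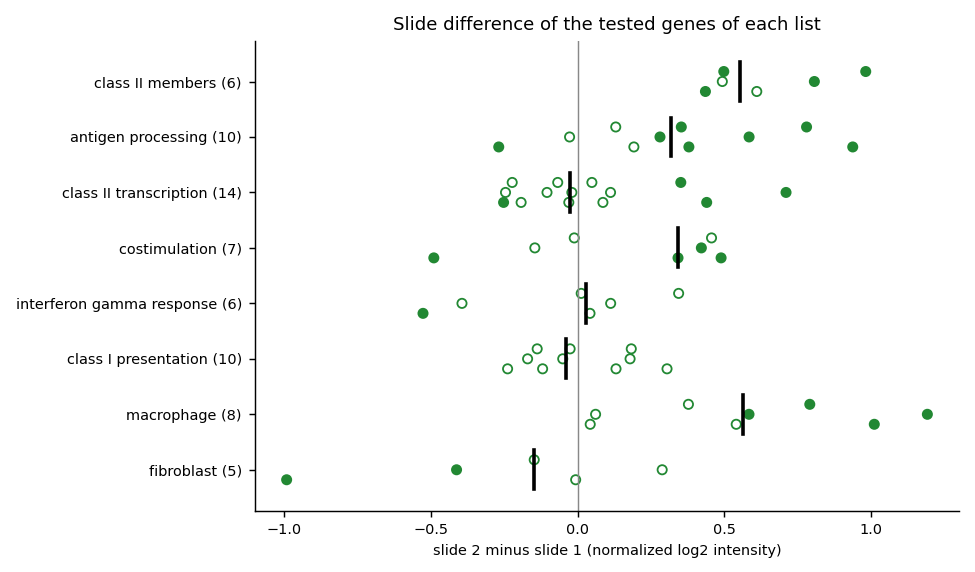
Slide 2 minus slide 1 in normalized log2 intensity (horizontal axis) for the tested genes of each list (rows, number tested in parentheses), with the brightest tested probe for each gene; filled circles have a limma adjusted p under 0.05, open circles do not, and black bars are medians. All 6 class II genes and all 8 macrophage markers lie above 0, with medians of 0.55 and 0.56, and the 10 class I genes lie around a median of -0.04.

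Markers of cell types also moved with the slide. Of 8 macrophage markers, 4 were called as higher on slide 2, namely Emr1 (F4/80) by 1.19, Itgam (CD11b) by 1.01, Csf1r, the receptor of macrophage colony-stimulating factor, by 0.79 and Cd14 by 0.58, and their limma adjusted p ran from 0.00114 to 0.0387. Fcgr1 and Mertk were 0.54 and 0.38 higher and not called, and Cd68 and Lyz2 differed by 0.06 and 0.04. Probes other than these were called by slide for Mertk (1 of 1 tested) and Lyz2 (2 of 3). The summed normalized intensity of the 8 markers was 42110 to 45010 on slide 1 and 47240 to 48540 on slide 2. That of the class II genes was 592.2 to 920 and 958.5 to 1288. Most of the marker sum, on this linear scale, comes from the probes of Lyz2 and Cd68, which differed least between the slides. The median slide difference per gene was 0.56 for the markers and 0.55 for the class II genes. By treatment the same sum of macrophage markers overlapped, at 42110 to 47590 in control and 44180 to 48540 with Ac-LDL. Mertk, a receptor for the uptake of dying cells, was called with Ac-LDL under the replicate block (difference 0.56, limma adjusted p = 0.0364) and not in the unpaired comparison (0.817), Fcgr1 differed by 0.61, Cd14 by -0.48 and Itgam by 0.35.

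Cells that carry much class II were looked for by their own markers. Of 8 dendritic cell markers, 5 were detected on 0 of 8 arrays (Flt3, Cd209a, Xcr1, Clec9a and Cd24a) and 2 were tested, of which Itgax (CD11c), which macrophages also express, was 0.58 higher on slide 2 (limma adjusted p = 0.00293) and Zbtb46 differed by -0.04. The other tested probe of Itgax was not called. With Ac-LDL, Zbtb46 differed by 0.13 and Itgax by 0.12. The summed intensity of this list was 190.2 to 201.8 on slide 1 and 211.8 to 215.3 on slide 2. Most of that sum comes from genes at or near background, and of the 2 tested genes only Itgax was higher on slide 2. Of 8 B cell markers on the array, Pax5, Blk, Cr2 and Cd79b were detected on 0 arrays, while Cd22 was 0.39 higher on slide 2 (limma adjusted p = 0.028) and Ms4a1 differed by -0.09. The other tested probe of Cd22 was not called. With Ac-LDL, Cd22 differed by 0.14 and Ms4a1 by -0.11. The sum of the B cell list overlapped between the slides, at 210.6 to 258.8 and 231.3 to 253.1.

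The large peritoneal macrophage list had Icam2 0.65 higher and Selp lower by slide (difference -0.34; limma adjusted p = 0.027 and 0.0308), Gata6 at -0.14, and Timd4 undetected; with Ac-LDL, Selp differed by -0.32, Icam2 by 0.30 and Gata6 by 0.00. Of 5 fibroblast markers, Lum and Col1a1 were lower on slide 2 (differences -0.99 and -0.41, limma adjusted p = 0.012 and 0.0198), Col3a1 differed by 0.29 and was not called (its other tested probe was), and with Ac-LDL Lum differed by 0.34, Col1a2 by -0.23, Col3a1 by -0.21 and Col1a1 by 0.05. The fibroblast sum, most of it from Dcn (slide difference -0.15, not called), was 11690 to 13360 on slide 1 and 9780 to 12220 on slide 2. The T cell gene Lck differed by -0.54 (limma adjusted p = 0.0234) by slide and -0.18 by treatment, with Cd3d, Cd3g, Cd4 and Cd8a undetected. Of the neutrophil, eosinophil, mast cell and mesothelium lists, limma called 0 genes by slide or treatment (0 and, with the block, 1 at an unadjusted p under 0.05); S100a8, Ltf, Il5ra, Upk3b and Krt19 differed by 0.04, -0.17, -0.07, -0.17 and -0.18 between the slides and by 0.24, 0.20, 0.03, 0.07 and 0.13 with Ac-LDL, and the 4 mast cell genes were detected on 0 arrays. The part of these cell type markers in the slide differences of the class II genes was not tested.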

How the data were processed

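RNA of the 8 samples was labelled and hybridized to Illumina Mouse WG-6 v2.0 bead chips. Per the file headers, the authors deposited for each probe and array the mean bead intensity on a linear scale, neither background-subtracted nor normalized, its bead standard error, a detection p-value against negative controls, and the count of beads (an average count per probe); BeadStudio is named as the tool. The authors' own normalized values were not used here. With R 4.3.3 and limma 3.58.1, intensities were background-corrected by neqc (offset 16, negative controls inferred from the detection p-values), quantile-normalized and taken to log2. A probe was tested if its detection p-value did not exceed 0.05 on 4 or more of the 8 arrays, which left 17122 probes for 12423 symbols.

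Ac-LDL was compared with control by lmFit and eBayes without a block, after the study's unpaired test. Slide was tested with group as a covariate, replicate number by a moderated F with group, and the Ac-LDL difference between slides by their interaction. Adjusted p is Benjamini-Hochberg over all 17122 probes. Single probes also had exact permutation tests. Shares of variation are sums of squares over the 8 arrays. A gene is given by its tested probe with the highest mean. The text names all 7 genes and the other class II genes, in each related list every called gene and up to 4 by treatment and 3 by slide of the largest differences, and the 10 genes most like the class II profile; genes named besides, chosen after their values were seen, are background, region neighbours or undetected markers. Values of a few genes that this rule names are not reported here. The members and lists were chosen with earlier results of these data known.

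The replicate numbers were read as pairs, though the labels do not say that same-numbered samples shared a harvest. Deviations from the group means correlated across probes between same-numbered arrays with r of 0.579, 0.479, 0.468 and 0.629. Same-numbered arrays also have adjacent position letters on their slide, so number and position cannot be told apart. Arrays of one slide with different numbers had r of 0.343, 0.429, 0.447 and 0.188, and arrays of different slides had r of at most -0.318, of which part follows from taking off the group means. Samples are labelled biological replicates; p-values measure the spread between these 8 arrays, whose number limits the precision. 2 arrays with identical values were not found (0 such pairs). Gene coordinates and promoters are RefSeq's, of GRCm38.p6; the build of the deposited probe coordinates is not named. Alternatives tried were no background correction, an offset of 50, median scaling, no filter, detection on all 8 arrays, a trended robust prior, replicate and slide blocks, fits within slides and within groups, the methods' t-test and leaving out each array.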

Additional observations from a re-analysis of the deposited data

How the results depend on the processing

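Between Ac-LDL and control, 0 class II probes were called under any of the alternatives (limma adjusted p from 0.0754, with the replicate block, to 1). Over all 17122 probes, limma called 7 (1 higher, 6 lower; 891 at an unadjusted p under 0.05). That count was 14 without background correction, 14 with median scaling, 0 without a filter (2290 at an unadjusted p under 0.05), 16 with a trended robust prior, 76 with the replicate block (28 higher, 48 lower), 55 with the slide block (15 higher, 40 lower), 14 within slide 1, 16 within slide 2, 0 by the methods' t-test after adjustment (1039 unadjusted), and 0 to 15 with 1 array left out. The block changed no call of a class II probe. Between the slides the count was 4042, against 41 within the Ac-LDL arrays and 2333 to 4478 with 1 array left out, and 3187 within the control arrays. Of the class II probes, 7 were called by slide, 8 without background correction or with an offset of 50, 3 of 10 without a filter and 7 of the 9 detected on all 8 arrays. Beside these, the counts over all probes were 4437 without background correction and 4490 with an offset of 50. They were 3074 of 45281 without a filter and 3928 of 14429 detected on all 8 arrays. For replicate number the count was 2076, against 3122 without background correction, 3176 with an offset of 50, 510 without a filter, 3226 with the robust prior and 724 to 2002 with 1 array left out. For the Ac-LDL difference between slides it was 0 (1435 unadjusted), 5 without background correction or with an offset of 50, 6 with the robust prior, and 0 to 0 with 1 array left out.

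Ac-LDL differences near 0 changed sign. Cd74 probe 2 was 0.013 with median scaling, 0.034 within slide 2 and between -0.23 and 0.14 with 1 array left out, Cd74 probe 1 between -0.19 and 0.21, and H2-Aa between -0.38 and 0.061. H2-Ab1 probe 3 was -0.058 within slide 1. The causes were not tested. No slide difference of a class II probe changed sign. Without background correction and with an offset of 50, that of H2-Aa fell from 0.81 to 0.50 and 0.43, that of H2-Eb1 from 0.50 to 0.31 and 0.26, and with the offset those of Cd74 probes 1 and 2 and H2-Ab1 probes 2 and 3 were 0.36, 0.29, 0.30 and 0.24. Signal over background limits Ciita, whose probe gave no measure above the negative controls.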
